A study of Mus musculus with 36 samples.

Results

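CC chemokines are small secreted proteins with adjacent cysteines near the N-terminus that attract leukocytes through G protein-coupled receptors. The transcripts of 7 CC chemokine genes, Ccl2, Ccl7, Ccl8, Ccl11, Ccl12, Ccl5 and Ccl20, were followed in cultured enteric glial cells (EGCs), the glia of the gut wall. They were taken by gene name from the 43472 genes of a count table, and each of the 7 had at least 1 count. The cells were wild-type primary EGCs grown out of neurospheres of mouse embryonic intestine, so that they are a cultured embryonic model and not glia taken from adult colon. They were left unstimulated, stimulated with H-CM (medium conditioned by dissociated healthy colon) or stimulated with TME-CM (tumor microenvironment conditioned medium, from dissociated orthotopic MC38 tumors, a mouse colorectal cancer line) for 6 h, 12 h or 24 h. Each of the 9 groups had 4 libraries, 36 in all, and TME-CM against H-CM was the main comparison, asking what tumor-derived factors do to the cells beyond factors of healthy tissue. Nothing in the labels says whether the 4 libraries of a group came from separate cultures, so p-values measure only the spread between these libraries, which may be technical.

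Chemokine genes are early targets of inflammatory signaling, and inducible transcription factors such as NF-kappa B, AP-1 and C/EBP proteins act on their promoters. Ccl2, Ccl7 and Ccl12 are monocyte chemoattractants with CCR2 as their main receptor, and Ccl8 lies beside Ccl12 in the genome. Ccl11 is eotaxin and attracts eosinophils through CCR3, Ccl5 (RANTES) attracts T cells and monocytes, and Ccl20 is the ligand of CCR6 on dendritic cells and subsets of lymphocytes. Monocytes recruited in this way are a source of tumor macrophages, and glia of the gut wall are known to release chemokines under inflammation.

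The total count per library ranged from 13518 to 5244763 at 6 h, from 2005239 to 5961933 at 12 h and from 1608018 to 7552509 at 24 h. The spread between libraries that edgeR estimates over genes in common (its dispersion) fell with time, from 0.572 for the 6 h libraries over 0.122 for those of 12 h to 0.0455 for those of 24 h. Libraries also differed in makeup at each time. At 6 h the single gene Yam1 took 10.97% to 37.8% of counts with TME-CM, 19.99% to 48.6% with H-CM and 13.1% to 46.3% without stimulation. Over all conditions Yam1 took 12.6% to 39.9% at 12 h and 12.7% to 35.1% at 24 h. Which of depth and makeup the larger spread at 6 h goes with was not tested. Levels below are CPM, the counts relative to a library size scaled by the TMM method over all 36 libraries, and means are given ± SD with n = 4. The libraries were built from transcript 3′ ends, so a count is not scaled by transcript length. A count of 0 allows a level of up to 3 counts, which is 0.328 to 1.53 CPM at 12 h and 24 h and 0.640 to 110 CPM at 6 h, where H-CM replicate 4 held only 13518 counts. These limits cover counting error only. All 10 markers of enteric glia (Sox10, S100b and others) had counts in every group, with a summed level of 258 to 365 CPM at 12 h and 24 h, and 0 of 10 were called between TME-CM and H-CM at either time (edgeR; 1 and 2 at an unadjusted p under 0.05, 0 and 1 with DESeq2).

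Of the 7 genes, 5 lie in one cluster on chromosome 11 of GRCm38 (the assembly also called mm10), within 81.2 kb and all on the plus strand. In order, Ccl2 starts at 82035571 and ends at 82037453, Ccl7 runs from 82045712 to 82047525, Ccl11 from 82057823 to 82062955, Ccl12 from 82101845 to 82103400 and Ccl8 from 82115185 to 82116799. Ccl5 lies on the minus strand of the same chromosome (83525778 to 83530518), with its lower end 1.49 Mb from the start of Ccl2, and Ccl20 lies on chromosome 1 (83116766 to 83119167, plus strand). The opposite-strand gene Gm17268 spans Ccl2 in the annotation, but they share 0 exon bases and Gm17268 had 0 counts. No other annotated gene overlapped a member. Among neighbors in the cluster, the level at 12 h in TME-CM EGCs ranged from 1685 ± 750 CPM for Ccl2 at one end to 0.908 ± 0.742 CPM for Ccl12, between Ccl11 and Ccl8.

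**Figure D1:**
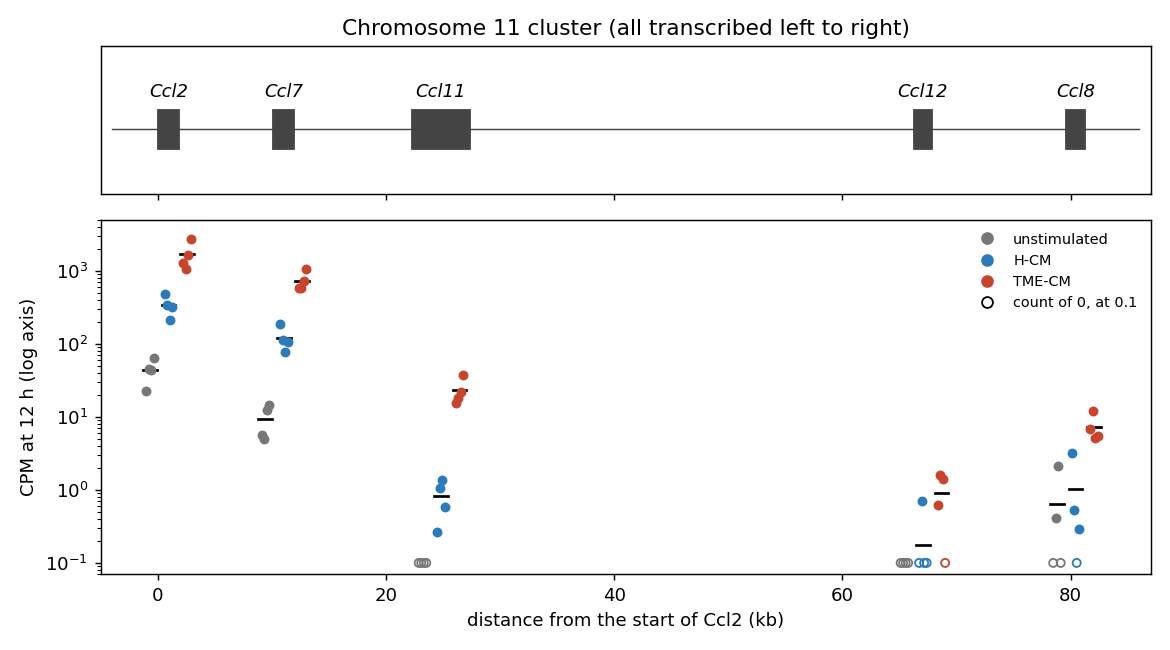
Map of the chromosome 11 cluster by distance from the start of Ccl2 in kb (top) and the CPM of each gene at 12 h on a log axis (bottom), with a point per library and a black line at the mean of 4 libraries where it is at least 0.1. Ccl2 and Ccl7, the leftmost genes, sit above the other 3 in every condition, and the TME-CM points of Ccl11 (15.5 to 36.8 CPM) have no overlap with the H-CM points.

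In TME-CM against H-CM EGCs, 1 of the 3 members that passed the filter on low counts rose at 6 h, 4 of 6 rose at 12 h and 5 of 6 rose at 24 h, and none fell (edgeR's quasi-likelihood test, adjusted p under 0.05). In the same order of times, 0.0972%, 1.22% and 2.75% of all genes tested rose. The median log2 fold change of the members tested was 1.87, 2.75 and 2.64 at these times, beside 0.13, -0.00 and 0.00 over all genes. DESeq2 called 1, 4 and 4 members in the same comparisons. Some members passed the filter mainly through their TME-CM libraries. At 12 h Ccl11, Ccl20 and Ccl8 had 370, 120 and 109 counts over the TME-CM libraries, against 17, 29 and 17 with H-CM. At 24 h Ccl11 and Ccl20 had 346 and 84 against 26 and 13. A rise was thus favored for these members once they were tested, so the counts and medians are no test of the members as a set. Without the 2 libraries of 6 h that held under 300000 counts, a setting that was not planned, the call of Ccl2 at 6 h stayed (edgeR, log2 fold change 1.87, adjusted p = 0.0461). The same call was lost with DESeq2 size factors in edgeR and with the replicate number as a block (edgeR, adjusted p = 0.102 with the block). All 4 TME-CM libraries lay above all 4 H-CM libraries for 3 of the 7 members at 6 h, 5 at 12 h and 6 at 24 h, a separation that 3.54%, 3.95% and 5.59% of all genes tested showed at these times. The member counts include Ccl20 at 6 h and Ccl12 at 24 h, which did not pass the filter and have no part in these shares. In H-CM replicate 4 their count of 0 allows up to 110 CPM at 6 h and 1.49 CPM at 24 h. Neither separation is therefore certain. In bulk RNA, more expressing cells and more RNA per cell cannot be told apart.

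**Figure D2:**
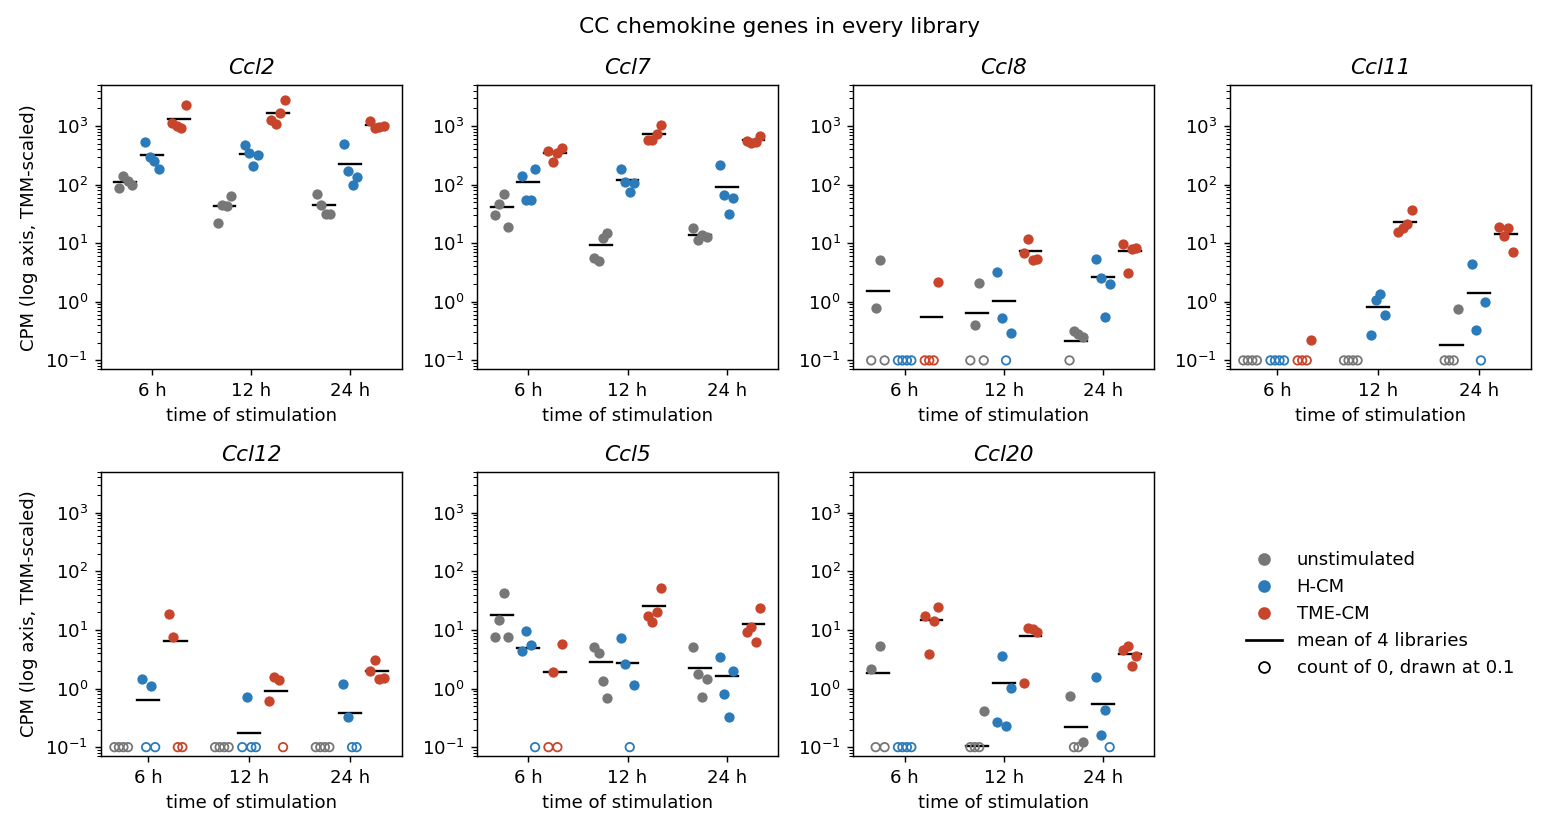
Level of each of the 7 genes in every library, in CPM on a log axis against the time of stimulation; filled points are libraries, open points at 0.1 are libraries with a count of 0, and black lines are means of 4 libraries, drawn where at least 0.1. At 24 h the TME-CM points lie above all H-CM points in every panel but that of Ccl8, and only Ccl5 at 6 h has its TME-CM points below the unstimulated ones.

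Ccl2, the main attractant of CCR2-positive monocytes, was the most abundant member in 9 of the 9 groups. In TME-CM EGCs, replicates 1 to 4 stood at 1273, 1059, 1662 and 2745 CPM at 12 h and at 1194, 924, 969 and 1009 CPM at 24 h. H-CM EGCs gave 474, 342, 208 and 321 CPM at 12 h and 498, 170, 96.4 and 135 CPM at 24 h, and unstimulated EGCs did not exceed 69.0 CPM at either time. The 3 conditions had no overlap at 12 h or at 24 h, with H-CM in the middle. TME-CM exceeded H-CM by a log2 fold change of 2.33 ± 0.32 (SE) at 12 h (adjusted p = 0.000644) and 2.18 ± 0.49 at 24 h (adjusted p = 0.0302). At 6 h, TME-CM EGCs already stood at 1121, 987, 905 and 2233 CPM, against 535, 296, 254 and 184 CPM with H-CM. This difference was 1.96 ± 0.39 on the log2 scale (adjusted p = 0.033). The call was kept with Yam1 left out before scaling, but not with DESeq2 size factors in edgeR or a replicate block. The 12 h call held in all 8 fits that each left out one library. The 24 h call was kept only without H-CM replicate 1 or 3 (adjusted p up to 0.0973 in the other 6), and the 6 h call was lost in 5 of 8 fits, those without H-CM replicate 2, 3 or 4 or TME-CM replicate 3 or 4 (up to 0.299).

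Ordered by mean, Ccl2 was highest with TME-CM at 12 h (1685 ± 750 CPM), 6 h (1311 ± 621) and 24 h (1024 ± 118), then with H-CM at 12 h (336 ± 109), 6 h (317 ± 152) and 24 h (225 ± 185), and lowest in unstimulated EGCs at 6 h (111 ± 22.4), 24 h (44.1 ± 17.6) and 12 h (43.6 ± 17.0). Within each condition, neighbors in this order overlapped, except that unstimulated EGCs at 6 h (88.6 to 140 CPM) lay above those at 24 h (31.4 to 69.0 CPM). Between conditions, H-CM at 24 h and unstimulated EGCs at 6 h overlapped, while TME-CM at 24 h lay above H-CM at 12 h in every library. Unstimulated EGCs were not at the floor, with 22 to 468 counts of Ccl2 in each library.

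Ccl7, which encodes another monocyte chemoattractant and lies 10.1 kb from Ccl2, followed it in level. TME-CM EGCs stood at 576, 574, 717 and 1045 CPM at 12 h and at 553, 510, 536 and 674 CPM at 24 h. With H-CM the values were 186, 112, 76.0 and 107 CPM at 12 h and 214, 66.1, 31.4 and 57.9 CPM at 24 h, and unstimulated EGCs reached at most 18.1 CPM. At both times the 3 conditions were apart in every library. TME-CM exceeded H-CM by 2.60 ± 0.30 on the log2 scale at 12 h (adjusted p = 0.00012) and by 2.61 ± 0.51 at 24 h (adjusted p = 0.0136), and both calls held in all 8 fits that left out one library (adjusted p up to 0.0499 at 24 h). With only the TME-CM and H-CM libraries in the fit, the 24 h call was lost (adjusted p = 0.0693). At 6 h, TME-CM EGCs gave 380, 244, 349 and 426 CPM and H-CM EGCs 139, 55.4, 55.5 and 184 CPM, the last from 5 counts. These groups did not overlap, but the log2 fold change of 1.87 ± 0.47 did not pass the test (adjusted p = 0.187).

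Relative to Ccl2, the count of Ccl7 differed between conditions at 24 h. For every 100 counts of Ccl2, TME-CM EGCs held 46.3, 55.1, 55.3 and 66.9 counts of Ccl7 at 24 h (55.9 ± 8.43), H-CM EGCs 43.0, 39.0, 32.5 and 42.9 (39.3 ± 4.91) and unstimulated EGCs 26.2, 26.1, 42.7 and 40.6 (33.9 ± 8.98). Each TME-CM library at 24 h lay above each library of the other conditions. At 12 h the ratio was 45.2 ± 6.73 with TME-CM, 35.5 ± 3.02 with H-CM and 21.9 ± 7.63 without stimulation, and TME-CM and H-CM overlapped by 1 library on each side. At 6 h the order was another, with the lowest mean for TME-CM (29.0 ± 8.79), against 41.6 ± 39.0 with H-CM, where replicate 4 rests on 5 counts of each gene, and 36.5 ± 16.6 without stimulation, and the conditions overlapped. The ratio was examined after the levels were seen, and its differences were not tested.

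**Figure D3:**
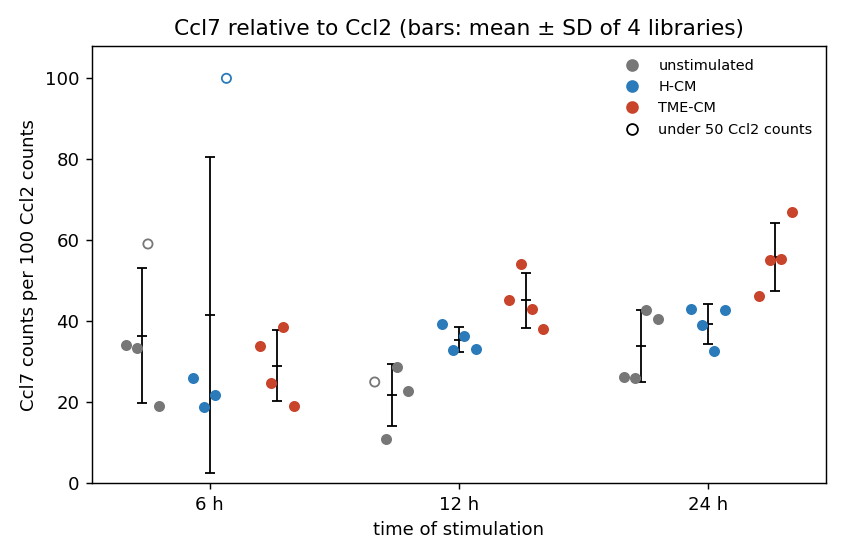
Ccl7 counts per 100 Ccl2 counts in each library against time; bars are mean ± SD of 4 libraries and open points mark libraries with under 50 Ccl2 counts. The TME-CM points at 24 h lie between 46.3 and 66.9, above the points of the other conditions at that time.

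Ccl11 (eotaxin) was close to absent without TME-CM and had the largest fold change of the members over H-CM. At 12 h, TME-CM EGCs stood at 15.5, 18.0, 21.5 and 36.8 CPM (45 to 143 counts), against 0.269, 1.06, 1.37 and 0.585 CPM with H-CM (1 to 6 counts). Unstimulated EGCs had 0 counts in all 4 libraries at 12 h, so the level with TME-CM was at least 23.2-fold higher than 3 counts per library allow there. Ccl11 exceeded its H-CM level by 4.75 ± 0.57 on the log2 scale (adjusted p = 0.00016), and this held whichever of the 8 libraries was dropped. At 24 h, TME-CM EGCs gave 19.2, 13.0, 18.4 and 7.05 CPM and H-CM EGCs 4.39, 0.324, 0 and 0.990 CPM. These libraries did not overlap and differed by 3.44 ± 0.87 on the log2 scale (adjusted p = 0.0335), but the call was lost without any one of H-CM replicates 2 and 4 and TME-CM replicates 1, 2 and 3 (adjusted p up to 0.113) and with DESeq2 (adjusted p = 0.163). At 6 h only 1 count of Ccl11 was found in all 12 libraries. The first time with more than 6 counts in a library was 12 h, whereas Ccl2 and Ccl7 were already at 244 CPM or more in every TME-CM library at 6 h.

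Ccl8 and Ccl12, at the far end of the cluster, were found at a few CPM. Ccl8 stood at 6.74, 12.0, 5.07 and 5.40 CPM with TME-CM at 12 h, against 3.23, 0.529, 0 and 0.293 CPM with H-CM. The groups did not overlap, yet 1 H-CM library held 12 of the 17 H-CM counts and the log2 fold change of 2.91 ± 1.06 did not pass the test (adjusted p = 0.249). At 24 h, TME-CM gave 9.81, 3.07, 7.94 and 8.22 CPM and H-CM 5.39, 2.59, 0.546 and 1.98 CPM, with 1.51 ± 0.54 on the log2 scale (adjusted p = 0.121), and these groups overlapped. Without H-CM replicate 1, the highest of that group, the 24 h difference was 2.20 and passed the test, as it did without TME-CM replicate 2 (1.73). Against unstimulated EGCs, which held 6 counts of Ccl8 over 4 libraries at 24 h, TME-CM raised the gene by 4.87 ± 0.70 on the log2 scale (adjusted p = 3.63e-05).

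Ccl12 did not pass the filter on low counts at any time and was not tested. In unstimulated EGCs it had 0 counts in all 12 libraries. TME-CM EGCs at 24 h stood at 2.02, 3.07, 1.48 and 1.51 CPM (8 to 14 counts), each above the H-CM libraries at 1.20, 0.324, 0 and 0 CPM, and the level was at least 3.99-fold above what 3 counts per library allow in unstimulated EGCs. A count of 0 in H-CM replicate 4 allows up to 1.49 CPM, which reaches the lowest TME-CM library. At 6 h the counts were 80 and 8 in TME-CM replicates 1 and 2 and 0 in replicates 3 and 4, so that 1 library carried most of the 88 counts of that group. At 12 h TME-CM EGCs had 3, 4, 7 and 0 counts. Reads that mapped to multiple loci were discarded by the authors, and these chemoattractant genes are related in sequence; how many reads this removed was not tested.

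Promoter sequence was held by RefSeq's table for 3 of the 7 members, from 250 bases before to 50 bases after the annotated start on GRCm38.p6, all on the plus strand. All 3 that the table held are shown: Ccl12 (chr11:82101595-82101894) and Ccl8 (chr11:82114935-82115234), adjacent in the cluster, and Ccl20 (chr1:83116516-83116815). Capitals mark matches to 5 motifs searched on both strands: the kappa B consensus, the AP-1 motif TGANTCA, the C/EBP motif TTGCNNAA, the tandem GAAANNGAAA of interferon-responsive elements and the TATA box TATAAA.
Ccl12: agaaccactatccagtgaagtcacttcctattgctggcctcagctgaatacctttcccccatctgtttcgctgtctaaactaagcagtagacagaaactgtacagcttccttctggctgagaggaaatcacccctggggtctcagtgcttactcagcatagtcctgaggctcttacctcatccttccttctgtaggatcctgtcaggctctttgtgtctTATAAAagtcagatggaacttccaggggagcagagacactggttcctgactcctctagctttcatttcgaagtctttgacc
Ccl8: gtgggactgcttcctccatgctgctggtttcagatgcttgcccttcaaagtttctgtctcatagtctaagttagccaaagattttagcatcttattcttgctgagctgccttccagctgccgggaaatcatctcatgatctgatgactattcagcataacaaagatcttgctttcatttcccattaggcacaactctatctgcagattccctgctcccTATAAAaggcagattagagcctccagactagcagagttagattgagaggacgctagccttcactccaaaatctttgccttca
Ccl20: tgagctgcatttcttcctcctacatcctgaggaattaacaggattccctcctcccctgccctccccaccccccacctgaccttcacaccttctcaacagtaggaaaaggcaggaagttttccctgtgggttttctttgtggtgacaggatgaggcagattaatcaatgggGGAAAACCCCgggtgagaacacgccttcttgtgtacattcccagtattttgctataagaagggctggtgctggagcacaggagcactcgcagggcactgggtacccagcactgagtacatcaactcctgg
Ccl12 and Ccl8 each had 1 match, a TATA box starting at position -31 and at position -32 from the start, a motif that 13.6% of the 32851 promoters in the table held. Ccl20 had 1 match, a kappa B consensus on the minus strand at position -80, which overlapped no other match, and 8.46% of promoters held this motif. No match to the AP-1 (7.81% of promoters), C/EBP (10.8%) or tandem GAAA (3.44%) letters lay in the 3 windows. A match describes the letters and does not show a bound factor, and the promoters of Ccl2, Ccl7, Ccl11 and Ccl5 are not shown.

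Ccl20, the ligand of CCR6, was found in TME-CM EGCs at every time and was the only member besides Ccl12 whose TME-CM mean was highest at 6 h. At 6 h the TME-CM libraries stood at 17.3, 3.82, 14.4 and 24.3 CPM (4 to 110 counts), and the H-CM libraries had 0 counts. With 3 counts over the unstimulated libraries, the ratio of TME-CM to unstimulated EGCs in summed counts was 42.8 (95% exact binomial interval 14.5 to 209), which covers counting error only and not the spread between libraries. The ratio of the group means was 8.07 (15.0 ± 8.52 against 1.85 ± 2.49 CPM), and the groups overlapped, since TME-CM replicate 2 lay below unstimulated replicate 3 at 5.26 CPM. Ccl20 did not pass the filter at 6 h and was not tested. No fold over H-CM is given at 6 h, since the limit that a count of 0 allows in H-CM replicate 4 is above the TME-CM level. At 12 h the values were 1.22, 10.8, 10.3 and 9.25 CPM with TME-CM and 0.269, 3.53, 0.228 and 1.02 CPM with H-CM, and the difference of 2.58 ± 0.91 on the log2 scale did not pass (adjusted p = 0.227). TME-CM replicate 1 lay within the H-CM range. At 24 h they were 4.47, 5.37, 2.42 and 3.52 CPM against 1.60, 0.162, 0.437 and 0 CPM, which did not overlap. This difference was 2.67 ± 0.78 (adjusted p = 0.0458), a call kept only without H-CM replicate 1 and lost when any of the other 7 libraries was dropped (up to 0.192).

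Ccl5, which lies outside the cluster, differed from the other members in its time course. At 12 h, TME-CM EGCs stood at 17.1, 13.6, 19.9 and 52.7 CPM, above H-CM EGCs at 7.26, 2.64, 0 and 1.17 CPM and unstimulated EGCs at 5.09, 4.10, 1.32 and 0.684 CPM. At 24 h they stood at 9.09, 11.1, 6.19 and 23.8 CPM, again above H-CM (3.39, 0.810, 0.328 and 1.98 CPM) and unstimulated EGCs (5.02, 1.76, 0.705 and 1.48 CPM) in every library. H-CM and unstimulated EGCs overlapped at both times. TME-CM exceeded H-CM by 3.28 ± 0.79 on the log2 scale at 12 h (adjusted p = 0.0412) and by 3.09 ± 0.66 at 24 h (adjusted p = 0.00776). The 24 h call held in all 8 fits that left out one library but not with all 36 libraries in 1 model (adjusted p = 0.279), and the 12 h call was lost without any one of H-CM replicates 2 and 4 and TME-CM replicates 1, 3 and 4 (up to 0.201). At 6 h the direction was the other way. Ccl5 stood at 0, 1.91, 0 and 5.75 CPM with TME-CM, at 4.38, 9.50, 5.55 and 0 CPM with H-CM and at 7.56, 14.9, 42.0 and 7.47 CPM without stimulation. Each TME-CM library lay below each unstimulated library, but the log2 fold changes of -3.15 ± 1.44 against unstimulated EGCs (adjusted p = 0.759) and -1.66 ± 1.41 against H-CM (adjusted p = 0.911) did not pass. The highest unstimulated value rests on 8 counts. The summed level of 16 myeloid markers was 73.1 to 604 CPM in TME-CM EGCs and 131 to 977 CPM in unstimulated EGCs at 6 h, and the part of it in this difference was not tested. The lymphoid marker Nkg7, a cytotoxic granule gene named after its values were seen, stood at 32.9 ± 45.8 CPM without stimulation, 9.41 ± 7.40 with H-CM and 0.478 ± 0.955 with TME-CM at 6 h. At 12 h it stood at 10.5 ± 7.76, 2.19 ± 1.76 and 7.68 ± 4.64 CPM, with TME-CM above H-CM by 1.80 ± 0.79 on the log2 scale (edgeR, unadjusted p = 0.0333, adjusted p = 0.397). At 24 h its means were 2.06 to 2.47 CPM in the 3 conditions, and its part in the Ccl5 values was not tested.

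**Figure D4:**
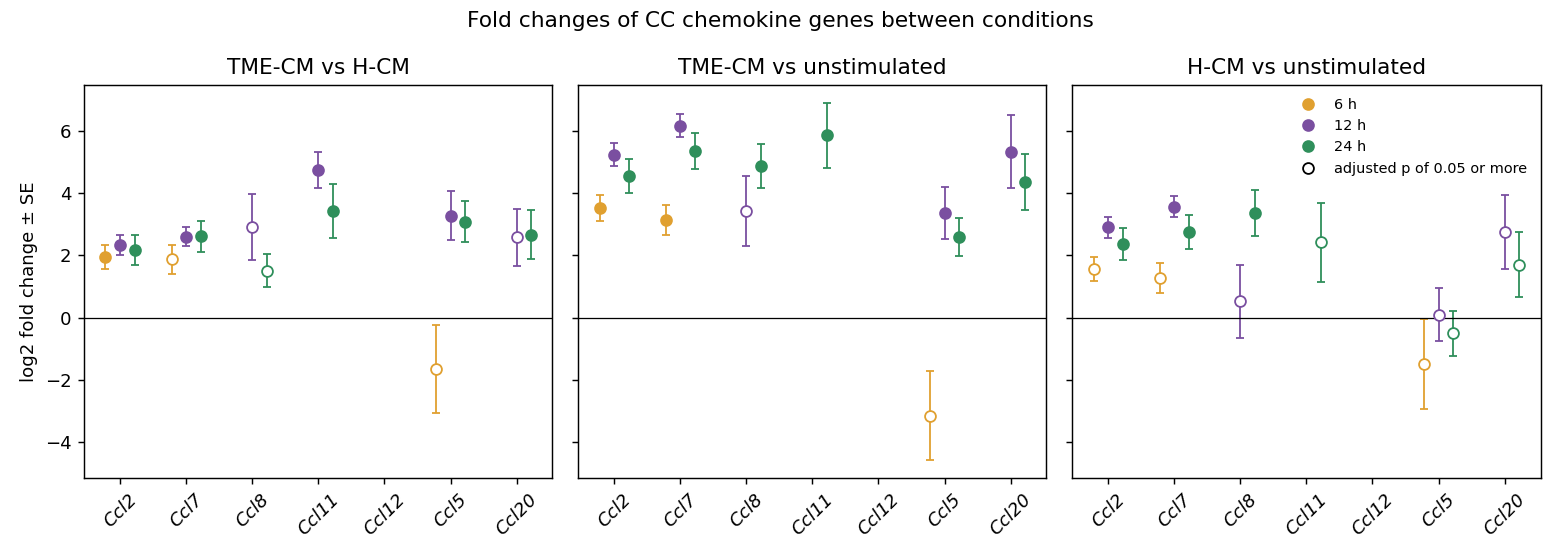
Log2 fold change ± SE of each member in 3 comparisons, with color for time and filled points for adjusted p under 0.05 (edgeR); members that were not tested, and folds against a group with 0 counts, are not drawn. In TME-CM against H-CM, points at 12 h and 24 h lie between 1.51 and 4.75, and the only points below 0 in the 3 panels are those of Ccl5.

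Against unstimulated EGCs, TME-CM raised 2 of 3 members tested at 6 h, 5 of 6 at 12 h and 6 of 6 at 24 h (0.432%, 2.67% and 4.82% of all genes tested rose). At 24 h the log2 fold changes were 5.36 ± 0.59 for Ccl7, 4.55 ± 0.55 for Ccl2, 5.86 ± 1.05 for Ccl11, 4.37 ± 0.90 for Ccl20 and 2.59 ± 0.61 for Ccl5. Ccl5, with the smallest of these, stood at 2.24 ± 1.90 CPM in unstimulated EGCs at 24 h, where Ccl8, Ccl11 and Ccl20 had means of at most 0.219 CPM. Ccl2 and Ccl7, with larger fold changes than Ccl5, stood higher there, at 44.1 ± 17.6 and 14.0 ± 2.85 CPM. At 12 h, Ccl20 rose (adjusted p = 0.00698) with a ratio of summed counts of 38.2 (interval 12.8 to 188, for counting error only), Ccl5 rose by 3.37 ± 0.83 (adjusted p = 0.0234, lost without unstimulated replicate 3 or 4 or TME-CM replicate 4) and Ccl8 did not pass (3.43 ± 1.13, adjusted p = 0.113). This comparison shares its TME-CM libraries with that against H-CM and is not independent of it. Ccl11, Ccl20 and Ccl8 at 12 h, and Ccl11 and Ccl20 at 24 h, passed the filter mainly through those TME-CM libraries. The counts of members that rose are therefore no test of the members as a set here either.

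H-CM alone also raised members of the cluster. Against unstimulated EGCs, 0 of 3 members tested rose at 6 h (2 at an unadjusted p under 0.05, 0 with DESeq2), 2 of 6 at 12 h and 3 of 6 at 24 h, beside 0%, 0.354% and 1.07% of all genes. At 12 h, Ccl2 rose by 2.91 ± 0.34 on the log2 scale (adjusted p = 0.000298) and Ccl7 by 3.56 ± 0.34 (adjusted p = 3.4e-05), and both calls held without any one library. At 24 h, Ccl2 rose by 2.37 ± 0.51 (adjusted p = 0.0472), Ccl7 by 2.75 ± 0.55 (adjusted p = 0.0327) and Ccl8 by 3.36 ± 0.74 (adjusted p = 0.0144). H-CM replicate 1 was the highest H-CM library at 24 h for all 7 members. The 24 h call of Ccl2 was lost without any one unstimulated library or without H-CM replicate 2, that of Ccl7 without any one unstimulated library, and that of Ccl8 without unstimulated replicate 4 or H-CM replicate 1 (adjusted p up to 0.147, 0.118 and 0.0972). Ccl5 did not follow, with log2 fold changes of 0.09 ± 0.86 at 12 h and -0.50 ± 0.72 at 24 h. At 12 h and 24 h, H-CM left Ccl2 and Ccl7 between the other conditions without overlap, while Ccl5 overlapped between H-CM and unstimulated EGCs at all 3 times. At 6 h Ccl7 overlapped between H-CM and unstimulated EGCs as well.

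From 12 h to 24 h, no member passed the test in any condition. The fit of each condition also held its 6 h libraries, whose spread was larger. With only the groups compared, 0 members were called as well. In TME-CM EGCs 0 of 6 members rose (0.0166% of all genes tested rose) and 0 fell, with 1 at an unadjusted p under 0.05 and 0 with DESeq2. All 6 log2 fold changes of 24 h over 12 h were negative there, from -1.04 ± 0.97 for Ccl5 to -0.00 ± 1.04 for Ccl8, with -0.72 ± 0.29 for Ccl2 and -0.36 ± 0.22 for Ccl7. The TME-CM libraries of the 2 times overlapped for all 7 members. In H-CM EGCs 0 of 4 members were called and in unstimulated EGCs 0 of 3, where 0% of all genes rose in both, and none of these members had an unadjusted p under 0.05 or was called with DESeq2. The difference between TME-CM and H-CM was also compared between the times in one model of 16 libraries. Its change from 12 h to 24 h was called for 0 of 6 members (0% of all genes rose; 0 members at an unadjusted p under 0.05, 0 with DESeq2), from -1.44 ± 1.03 for Ccl8 to 0.13 ± 0.97 for Ccl20. For Ccl2 and Ccl7 the change was -0.13 ± 0.60 and 0.03 ± 0.62, so that changes of about 1 on the log2 scale either way lie within 2 SE.

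The genes most like a member over the 9 groups were sought among 9204 others that passed the filter at all 3 times, by the root mean square difference of centered mean log2 CPM. Ccl2 and Ccl7 differed from each other by 0.36. Ccl2 was next closest to Gm4951 (0.45), Slfn2 (0.52) and Cebpd (0.55), where the median over all genes was 1.97. Ccl7 was closest to Gm4951 (0.61), Cp (0.62), which encodes ceruloplasmin, and Ifit1 (0.64), an interferon-induced gene, beside a median of 2.18. Ccl5 was closest to Mcpt8 (0.75), a protease gene of basophils, Psme2 (0.81), a proteasome activator subunit, and Gm7776 (0.89), beside a median of 1.46, and lay 1.94 from Ccl2 and 2.02 from Ccl7. These distances describe 9 groups that share libraries and depth within each time.

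Among 16 other CC ligand genes, the filter kept 4 at 12 h and 6 at 24 h. One rose with TME-CM at 12 h, Ccl3 (macrophage inflammatory protein 1 alpha), at 17.8 ± 4.10 CPM against 2.20 ± 1.79 with H-CM, by 3.03 ± 0.75 on the log2 scale (adjusted p = 0.0389). At 24 h none was called (1 at an unadjusted p under 0.05 and 1 with DESeq2), and Ccl3 stood at 7.64 ± 4.36 against 1.98 ± 1.03 CPM (log2 fold change 2.04 ± 0.61, adjusted p = 0.0525). The median log2 fold change of those tested was 1.31 at 12 h and -0.19 at 24 h. The medians of the members tested at these times were 2.75 and 2.64. Since the members were chosen with earlier results of these data known, the gap between these medians is no test of a difference. Of 16 receptor genes for CC chemokines and atypical receptors, 0 passed the filter at 6 h, 1 at 12 h and 2 at 24 h, and none was called between TME-CM and H-CM (edgeR; 1 at an unadjusted p under 0.05 at 24 h, 0 with DESeq2). The one kept at both later times, named after its values were seen, was the atypical receptor gene Ackr3, at 8.53 ± 3.44 CPM with TME-CM and 7.63 ± 1.12 with H-CM at 12 h. The other, Ackr4, was called lower in TME-CM than in unstimulated EGCs at 24 h, with 0.479 ± 0.408 CPM with TME-CM, 1.36 ± 0.368 with H-CM and 3.76 ± 1.48 without stimulation.

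Of 27 genes that encode regulators of chemokine transcription or of chemokine mRNA decay, 8 rose with TME-CM over H-CM at 12 h and 8 at 24 h, and 0 fell, where 1.22% and 2.75% of all genes tested rose. Their median log2 fold change was 0.77 at 12 h and 0.67 at 24 h. Cebpd, a C/EBP transcription factor, rose from 56.8 CPM with H-CM to 304 CPM at 12 h (2.43 ± 0.29 on the log2 scale, adjusted p = 0.000126) and by 2.50 ± 0.25 at 24 h (adjusted p = 1.24e-05). Zc3h12a, which encodes Regnase-1, an RNase that degrades inflammatory mRNAs, rose by 2.68 ± 0.65 and 2.14 ± 0.46 (adjusted p = 0.0353 and 0.00551). The nuclear I kappa B family genes Bcl3 and Nfkbiz rose at both times, Bcl3 by 1.55 ± 0.40 and 2.22 ± 0.31 and Nfkbiz by 1.43 ± 0.26 and 1.82 ± 0.19, as did the interferon regulatory factor gene Irf1 by 1.65 ± 0.26 and 0.96 ± 0.19. Among these regulators are both activators and inhibitors of chemokine expression. At 6 h 1 of 24 rose, Cebpd again (2.04 ± 0.42, adjusted p = 0.0441).

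Of 12 genes for enzymes that trim chemokines and proteoglycans that hold them, 10 were tested at 12 h and 24 h. With TME-CM 3 rose at 12 h and 5 at 24 h, and 0 fell, beside the same 1.22% and 2.75% of all genes. The median log2 fold change was 0.77 and 0.85. The matrix metalloproteinase genes Mmp9 and Mmp13 rose at both times, Mmp9 from 79.3 to 494 CPM at 12 h (2.65 ± 0.43, adjusted p = 0.00414) and from 105 to 777 CPM at 24 h (2.87 ± 0.48, adjusted p = 0.00554). Mmp13 rose by 2.57 ± 0.40 and 2.34 ± 0.31 (adjusted p = 0.00117 and 0.000125). Mmp3 was at 375 ± 131 CPM with TME-CM at 12 h, where it did not pass (3.41 ± 0.86, adjusted p = 0.0989), and rose at 24 h by 3.23 ± 0.44 (adjusted p = 0.00114). Among the syndecan genes, whose heparan sulfate chains bind chemokines, Sdc1 rose by 1.29 ± 0.23 and 1.20 ± 0.15, and Sdc4, named after its values were seen, by 0.85 ± 0.23 at 24 h (adjusted p = 0.0423).

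Markers of other cells were present in these cultures and are given beside the chemokine values, and their part in the results was not tested. The summed level of 16 myeloid markers was 109 to 469 CPM with TME-CM, 93.2 to 301 with H-CM and 74.6 to 385 without stimulation at 12 h, and 89.1 to 431, 86.2 to 395 and 66.9 to 275 CPM at 24 h. The conditions overlapped, but the replicate numbers did not: replicates 1 and 2 stood at 238 to 469 CPM and replicates 3 and 4 at 66.9 to 162 CPM over all conditions of both times. Of the markers, 0 of 14 tested were called between TME-CM and H-CM at either time (0 at an unadjusted p under 0.05, 0 with DESeq2). Lyz2, at 107 ± 80.5 and 132 ± 96.9 CPM with TME-CM, had the highest level, Ptprc (CD45) was at 3.79 ± 3.89 and 3.85 ± 3.63 CPM, and Cx3cr1 had 1 and 2 counts over the 4 libraries. Of 8 lymphoid markers, only Nkg7, given above, passed the filter, and Cd3g, Cd8a and Cd79a had 0 counts in every library at 24 h. Of 7 mast cell and eosinophil markers, 5 were tested at 12 h and 24 h, with a median log2 fold change of 1.27 and 0.18. One was called at each time, Kit, which fell by 1.37 ± 0.34 and 1.28 ± 0.34, and DESeq2 called 2 at 12 h, Siglecf being the other, at 5.81 ± 8.41 CPM with TME-CM and 0.620 ± 0.526 with H-CM (edgeR log2 fold change 3.13 ± 1.10, adjusted p = 0.216). Both were named after their values were seen. Endothelial markers had 1 of 3 tested lower at 24 h, and none of the enteric neuron or of the mesothelial and epithelial markers was called at 12 h or 24 h (edgeR; 1 of each list at an unadjusted p under 0.05 at 24 h, 0 with DESeq2).

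**Figure D5:**
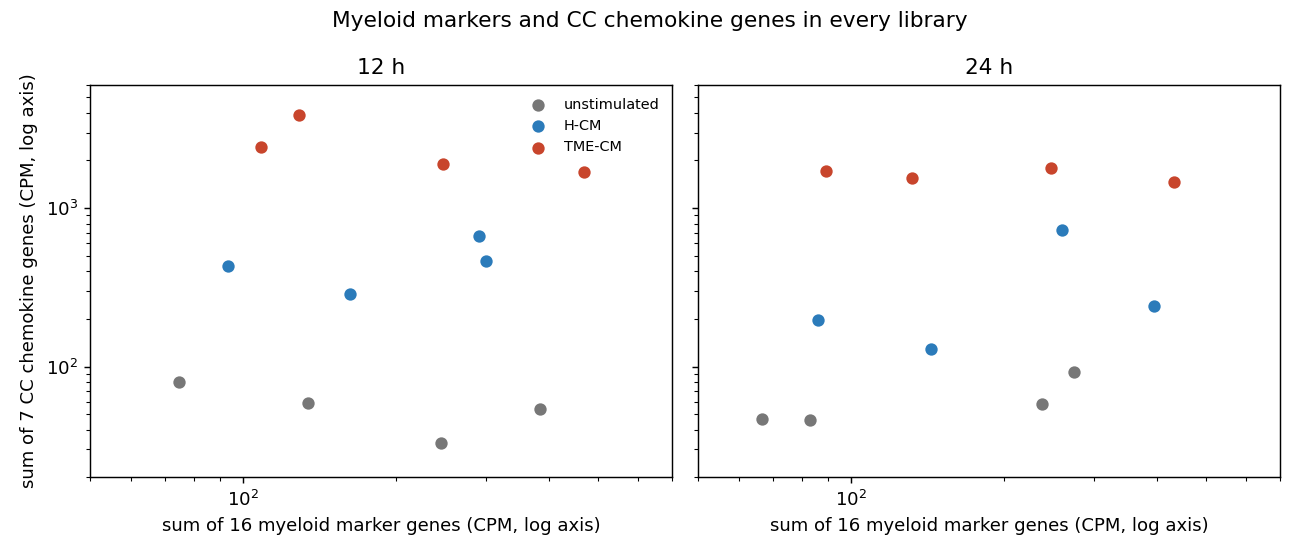
Summed level of the 7 chemokine genes against the summed level of 16 myeloid markers in every library at 12 h and 24 h, both in CPM on log axes. The 4 TME-CM points lie above the H-CM and unstimulated points at each time, while the conditions overlap along the myeloid axis (66.9 to 469 CPM). Ccl2 and Ccl7 made up 68.0% and 29.4% of the chemokine sum with TME-CM at 12 h, and 62.7% and 34.8% at 24 h. The plot therefore shows little of the other members.

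Stromal markers differed between the conditions. Of 8 fibroblast markers, 7 were tested, and with TME-CM over H-CM 1 rose at 12 h (Dcn, by 1.18 ± 0.17) and 4 at 24 h (Dcn by 1.21 ± 0.13, Pdgfra by 0.93 ± 0.18, Lum by 0.65 ± 0.16 and Col3a1 by 0.44 ± 0.13), all named after their values were seen. Of all genes tested, 1.22% and 2.75% rose at these times. The median log2 fold change of the list was -0.03 at 12 h and 0.44 at 24 h. At 12 h the means of Col1a1, Col3a1, Dpt and Twist1 were lower with TME-CM. Those of Dcn (1924 against 852 CPM), Pdgfra and Lum were higher. At 24 h Dpt was lower (10.1 against 15.5 CPM). The summed level of the list was 5270 to 6183 CPM with TME-CM and 4342 to 5114 with H-CM at 12 h. At 24 h it was 5648 to 6902 against 4151 to 4982 CPM, without overlap at either time. Unstimulated EGCs stood at 4984 to 6155 and 5163 to 6509 CPM and overlapped with TME-CM. Of 7 smooth muscle markers, 3 fell at 12 h and 4 at 24 h with TME-CM, where 82 of 12156 and 337 of 12713 genes tested fell, and their sum at 24 h was 1713 to 2433 CPM with TME-CM, 3238 to 4011 with H-CM and 7052 to 8095 without stimulation. The part of these stromal levels in the chemokine results was not tested.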

How the data were processed

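Bulk 3′ mRNA libraries (QuantSeq) of mouse EGCs were analysed in 9 groups of 4, grouped by the labels. Per the study's methods and the submitters' processing notes, the authors trimmed adapters, checked quality with FastQC 0.11.7, aligned reads to mm10 with HISAT2, discarded multi-mapping reads, used SAMtools 1.5 and counted reads per gene with HTSeq. The deposited values are raw read counts per gene. The gene annotation, whether counting used strand, and any molecular identifiers are not given in the sources used here. Here, genes passing filterByExpr (minimum count 10) were tested with edgeR 4.0.16 (TMM, robust quasi-likelihood test, Benjamini-Hochberg adjustment over all genes tested, threshold 0.05) in R 4.3.3. Each time point was fitted with its 12 libraries. Each stimulation was fitted with its 12 libraries of 6 h, 12 h and 24 h, and the change over time with 16 libraries of 12 h and 24 h. Alternatives were DESeq2 1.42.0, other size factors, no filter, other sample sets, Yam1 left out, a replicate block and each library left out. Means, SDs and likeness used CPM (prior count 2 for log2). Scripts were tested on simulated counts. All 7 members were named, with up to 4 genes per pathway list and direction, by largest log2 fold change among those past the threshold, and 3 most alike genes. The members and lists were chosen with earlier results of these data known. Positions are from GENCODE vM21 (GRCm38).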

Additional observations from a re-analysis of the deposited data

Results flagged for a closer look

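Of 55 groups of 4 libraries with at least 1 count of the gene, 11 had a library whose gap to the nearest other library was above Dixon's 95% critical value, which chance gives in about 1 group in 20. In 5 of the 11 the other 3 libraries had 0 counts, where any count passes, so this rate does not hold for them. Ccl2 stood at 2233 CPM in TME-CM replicate 4 at 6 h, and Ccl5 at 52.7 CPM in TME-CM replicate 4 at 12 h, each far above the rest of its group. Ccl20 was low in TME-CM replicate 1 at 12 h (1.22 CPM). The others were single libraries with few counts. Ccl8 stood at 5.26 CPM in unstimulated replicate 3 at 6 h, 2.21 CPM in TME-CM replicate 4 at 6 h and 3.23 CPM in H-CM replicate 1 at 12 h. Ccl11 stood at 0.221 CPM in TME-CM replicate 4 at 6 h and 0.741 CPM in unstimulated replicate 4 at 24 h. Ccl12 stood at 0.705 CPM in H-CM replicate 2 at 12 h. Ccl20 stood at 0.411 CPM in unstimulated replicate 4 at 12 h and 0.752 CPM in unstimulated replicate 1 at 24 h.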

How the results depend on the processing

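Over 64 results of single members, 982 alternative values were computed, of which 869 kept direction and side of the threshold, 57 lost the call, 12 gained it and 44 turned direction, the last all among results without a call. The count of members that rose in TME-CM against H-CM at 6 h, 1, was 0 with DESeq2 size factors, 2 without a filter, 2 with only the groups compared, 3 with all 36 libraries in 1 model and 0 with the replicate block, and 0 to 1 when each library was left out. At 24 h the count of 5 was 2 with only the groups compared, 2 with all 36 libraries and 2 to 6 when each library was left out. For H-CM against unstimulated EGCs at 24 h the count of 3 was 0 with only the groups compared and 0 to 3 when each library was left out. The cause of these moves was not tested.

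No label ties the replicate numbers to a shared culture or day, and not every pair of same-numbered libraries correlated: the deviations of same-numbered libraries correlated above 0.1 in 2 of 12 pairs at 6 h, 3 of 12 at 12 h and 7 of 12 at 24 h, and in 4, 3 and 7 of 12 cases a library correlated best with its own number. At 24 h this held for all 4 numbers between unstimulated and H-CM EGCs, and the summed myeloid markers followed the number at 12 h and 24 h, a hint from the data that numbers may be shared. With the replicate block the Ccl2 call at 6 h was lost (1.93, adjusted p = 0.102), and it changed no other call of a member.

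The following uncalled log2 fold changes turned direction. Ccl5 in H-CM against unstimulated EGCs at 12 h was -0.0040 with DESeq2 and -0.16 with the replicate block. Ccl8 in TME-CM at 24 h over 12 h was 0.033 without a filter, 0.047 with only the groups compared, 0.0064 with all 36 libraries and 0.0023 with Yam1 left out. The change of Ccl20 between times was -0.20 with the replicate block. With each library left out, H-CM against unstimulated EGCs ran from -0.90 to 0.58 for Ccl5 and -1.12 to 2.97 for Ccl8 at 12 h, and from -1.41 to 0.14 for Ccl5 at 24 h. For 24 h over 12 h it ran from -0.18 to 0.34 for Ccl8 in TME-CM, -1.59 to 0.26 for Ccl5 in H-CM, and -0.31 to 0.25 for Ccl2 and -1.01 to 0.19 for Ccl5 without stimulation. The change of the TME-CM effect ran from -0.38 to 0.62 for Ccl2, -0.27 to 0.87 for Ccl7, -1.89 to 0.97 for Ccl11, -1.15 to 0.70 for Ccl5 and -1.09 to 1.21 for Ccl20. Depth limits Ccl8, Ccl11, Ccl12, Ccl5 and Ccl20, and all values at 6 h.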
